A study of Homo sapiens with 8 samples.

Results

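The 10 enzymes described here build purine and pyrimidine nucleotides from small precursors, and were chosen by name: PPAT, GART, PFAS, PAICS, ADSL, ATIC, IMPDH2, GMPS, CAD and UMPS. The enzymes were chosen with earlier results of these data known. They are 10 of the 12235 genes with a value in at least 1 library. Ribosome profiling sequences the mRNA fragments (footprints) that ribosomes shield from a nuclease, and was done in HEK293T, an established line of human embryonic kidney origin immortalized by SV40 large T antigen. Cells were kept overnight in control medium (Suff), rebuilt with dialyzed serum and all amino acids, or in the same medium without arginine (Arg-), leucine (Leu-) or methionine (Met-). Each medium was profiled with a pretreatment with cycloheximide, a drug that arrests elongating ribosomes, and again without it. There was 1 library for each of these 8 conditions, all from the same cell line, so no value has a replicate error and no difference between media could be tested. Values are RPKM, the reads on a coding sequence divided by its length and by the library's reads on all coding sequences. RPKM is a share of a library and does not report the total number of ribosomes, and footprints do not separate the amount of an mRNA from the number of ribosomes on it.

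Purine synthesis assembles the purine ring step by step on the sugar phosphate PRPP until inosine monophosphate (IMP) is formed. PPAT, the amidotransferase, commits PRPP to the pathway. GART, PFAS, PAICS, ADSL and ATIC carry out the later steps, of which those of GART and ATIC take one-carbon units from folates. IMP then leads to AMP, where ADSL acts again, or to GMP through IMPDH2 and GMPS. In the pyrimidine pathway CAD, a large protein with 3 activities that ends in dihydroorotate, opens the route and UMPS closes it with UMP. PPAT, PFAS, GMPS and CAD take nitrogen from glutamine. Growing cells draw on these routes for RNA, DNA and nucleotide cofactors, and CAD is a known target of growth factor and amino acid signalling.

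On GRCh38, PPAT (chr4:56393362-56435615, minus strand) and PAICS (chr4:56435741-56464578, plus strand) lie head to head. The other purine genes are GART (chr21:33503931-33543491, minus), PFAS (chr17:8247618-8270491, plus), ADSL (chr22:40346461-40390463, plus) and ATIC (chr2:215311956-215349773, plus). IMPDH2 (chr3:49024325-49029447, minus), GMPS (chr3:155870650-155944020, plus) and UMPS (chr3:124730433-124749273, plus) lie on chromosome 3, and CAD is at chr2:27217369-27243943 (plus). CAD has the longest coding sequence of the 10, with 6675 nt in 44 exons, and UMPS the fewest exons, 6. Annotated pseudogenes carry the symbol of PAICS (7), PPAT (2) and GMPS (1). Only uniquely mapped reads were kept, so reads shared with such copies would be missing if the copies were in the aligned transcriptome. Whether they were was not checked, and the levels of these 3 are uncertain.

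Promoter windows in RefSeq (GRCh38.p14) run from 250 bases before to 50 after each transcript start, and 8 of the 10 enzymes had at least 1, with 12 windows in all. IMPDH2 and ADSL had no window in the table used. The letters CACGTG, the E-box core that MYC and related factors bind, were found in 3 of the 12 windows, 1 each of PPAT, PAICS and ATIC, against 7.26% of all 35116 windows. No window of the 8 held TGATGCAA (or TTGCATCA on the other strand), a sequence of the kind ATF4 binds, which 0.866% of all windows held. None held CGCATGCG, the core of the NRF1 motif, found in 2.02% of all windows. These are matches of letters in a short window and not binding sites. GART, PFAS, GMPS, UMPS and CAD had no CACGTG in their windows, and sequence beyond the windows was not searched. The starts of PPAT and PAICS are 137 nt apart and their windows overlap by 236 nt, so that 1 CACGTG site lies in both. The PAICS window is printed because PPAT and PAICS share most of it while their levels without cycloheximide lay on opposite sides of Suff in Arg- and Met-. The ATIC window is printed because it holds 2 sites, and the CAD window because CAD had the lowest ratios of the 10 without cycloheximide. Whether the letters go with the ratios was not tested. All 3 windows are 5′ to 3′ on the plus strand, with CACGTG in capitals. They lie at chr4:56435502-56435801 (PAICS), chr2:215311809-215312108 (ATIC) and chr2:27217119-27217418 (CAD).
PAICS: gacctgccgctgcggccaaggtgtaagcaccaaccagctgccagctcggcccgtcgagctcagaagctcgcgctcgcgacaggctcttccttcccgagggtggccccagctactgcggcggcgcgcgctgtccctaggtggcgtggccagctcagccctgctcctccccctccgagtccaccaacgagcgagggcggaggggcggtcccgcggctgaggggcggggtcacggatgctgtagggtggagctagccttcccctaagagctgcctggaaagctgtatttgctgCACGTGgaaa
ATIC: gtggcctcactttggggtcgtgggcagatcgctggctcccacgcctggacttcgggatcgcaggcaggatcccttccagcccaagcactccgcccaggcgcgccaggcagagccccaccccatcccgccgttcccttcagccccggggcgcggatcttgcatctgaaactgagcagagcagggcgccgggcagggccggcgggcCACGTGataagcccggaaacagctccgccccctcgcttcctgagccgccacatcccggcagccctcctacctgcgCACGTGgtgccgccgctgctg
CAD: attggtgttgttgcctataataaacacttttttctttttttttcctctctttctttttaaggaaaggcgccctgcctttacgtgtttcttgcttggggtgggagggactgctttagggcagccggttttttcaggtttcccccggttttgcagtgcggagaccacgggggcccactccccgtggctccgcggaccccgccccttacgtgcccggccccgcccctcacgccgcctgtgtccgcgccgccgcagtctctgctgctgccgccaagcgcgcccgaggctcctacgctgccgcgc

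Recovered reads on coding sequences numbered 1302523 to 3139745 per library without cycloheximide and 538222 to 6434043 with it. The fewest reads of any listed mRNA were 5 without cycloheximide and 64 with it, so the cycloheximide libraries lack weakly covered mRNAs. Met- with cycloheximide was the shallowest library and listed 2021 genes, against 5466 to 8906 in the other 3 of that series and 10871 to 11437 without the drug. Of 8 genes that HEK293 cells are known to express, 2 to 7 were listed per library, with a summed RPKM of 166 to 819, and NEFH was listed in none. Of markers of other cell types, no liver, erythroid or keratinocyte gene was listed, and COL1A1 reached 20.2 RPKM in Suff with cycloheximide and at most 4.19 without it.

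Without cycloheximide all 10 enzymes were listed in all 4 libraries, and they did not move together. CAD was the lowest relative to Suff in every starvation, at 0.388 to 0.471 of the Suff RPKM. IMPDH2 was at 0.457 of it in Met-. GART was higher in all 3 starvations, by 1.89-fold to 2.20-fold, and UMPS was 1.99-fold higher in Met-. Folds are ratios of RPKM with exact 95% intervals from the recovered reads, which cover counting error only and not the variation between cultures.

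PPAT, which commits PRPP to purine synthesis, had an RPKM of 76.7 in Suff, 95.9 in Arg-, 108 in Leu- and 109.7 in Met-. All 3 starved libraries were above Suff, by 1.25-fold (1.06 to 1.47) in Arg-, 1.41-fold (1.20 to 1.66) in Leu- and 1.43-fold (1.21 to 1.69) in Met-. GART, whose single protein carries out 3 of the early steps, stood at 58.5 RPKM in Suff, 117 in Arg-, 111 in Leu- and 129 in Met-. Its 3 starved libraries lay close to each other and well above Suff, at 1.998-fold (1.78 to 2.25), 1.89-fold (1.68 to 2.14) and 2.20-fold (1.95 to 2.48). PFAS, the glutamine-dependent enzyme that follows, was among the lowest at 17.2 RPKM in Suff, 13.9 in Arg-, 16.5 in Leu- and 29.2 in Met-. Only its Met- library stood apart from Suff, at 1.70-fold (1.37 to 2.10). The intervals included 1 in Arg- (0.625 to 1.04) and Leu- (0.747 to 1.22).

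PAICS, the bifunctional enzyme of the next steps, had the highest RPKM of the 10 in all 4 libraries, with 790.5 in Suff, 520.5 in Arg-, 806 in Leu- and 495 in Met-. The interval of Leu- over Suff included 1 (1.02-fold, 0.960 to 1.08), while Arg- was at 0.658 of Suff (0.614 to 0.705) and Met- at 0.626 (0.579 to 0.675). PAICS thus lay below Suff in 2 starvations in which PPAT, its head-to-head neighbour, lay above. ADSL, the lyase that acts in both the IMP and the AMP branch, had 236 RPKM in Suff, 199.9 in Arg-, 184 in Leu- and 163 in Met-. It was below Suff in all 3, at 0.848 (0.760 to 0.945), 0.780 (0.695 to 0.874) and 0.690 (0.607 to 0.782). ATIC, which closes the ring to IMP, had 139 RPKM in Suff, 247 in Arg-, 230.2 in Leu- and 136 in Met-. It was higher in Arg- (1.77-fold, 1.60 to 1.96) and Leu- (1.65-fold, 1.48 to 1.84), and its interval in Met- included 1 (0.975-fold, 0.852 to 1.11).

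IMPDH2, which makes XMP from IMP and limits the rate of GMP synthesis, had 535 RPKM in Suff, 452 in Arg-, 451 in Leu- and 244 in Met-. Arg- and Leu- were equal to each other within counting error and a little below Suff (0.844, 0.786 to 0.905, and 0.842, 0.782 to 0.905), and Met- was far lower at 0.457 (0.414 to 0.503). GMPS, which turns XMP into GMP, had 69.6 RPKM in Suff, 112 in Arg-, 108 in Leu- and 88.5 in Met-. It went the other way from IMPDH2, above Suff by 1.62-fold (1.41 to 1.86), 1.55-fold (1.35 to 1.79) and 1.27-fold (1.08 to 1.49). The 2 consecutive enzymes of the GMP branch therefore lay on opposite sides of Suff in all 3 starvations.

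CAD, the entry enzyme of the pyrimidine route, had 20.2 RPKM in Suff, 8.65 in Arg-, 9.50 in Leu- and 7.82 in Met-, from 423, 93, 95 and 68 reads. Its 3 starved libraries did not differ from each other beyond counting error and all were far below Suff, at 0.429 (0.339 to 0.538), 0.471 (0.373 to 0.590) and 0.388 (0.295 to 0.502). UMPS, at the other end of the route, had 91.4 RPKM in Suff, 104 in Arg-, 103 in Leu- and 182 in Met-. It exceeded Suff in Met- by 1.99-fold (1.72 to 2.30), and the intervals of Arg- (1.13-fold, 0.964 to 1.33) and Leu- (1.12-fold, 0.951 to 1.33) included 1.

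**Figure D1:**
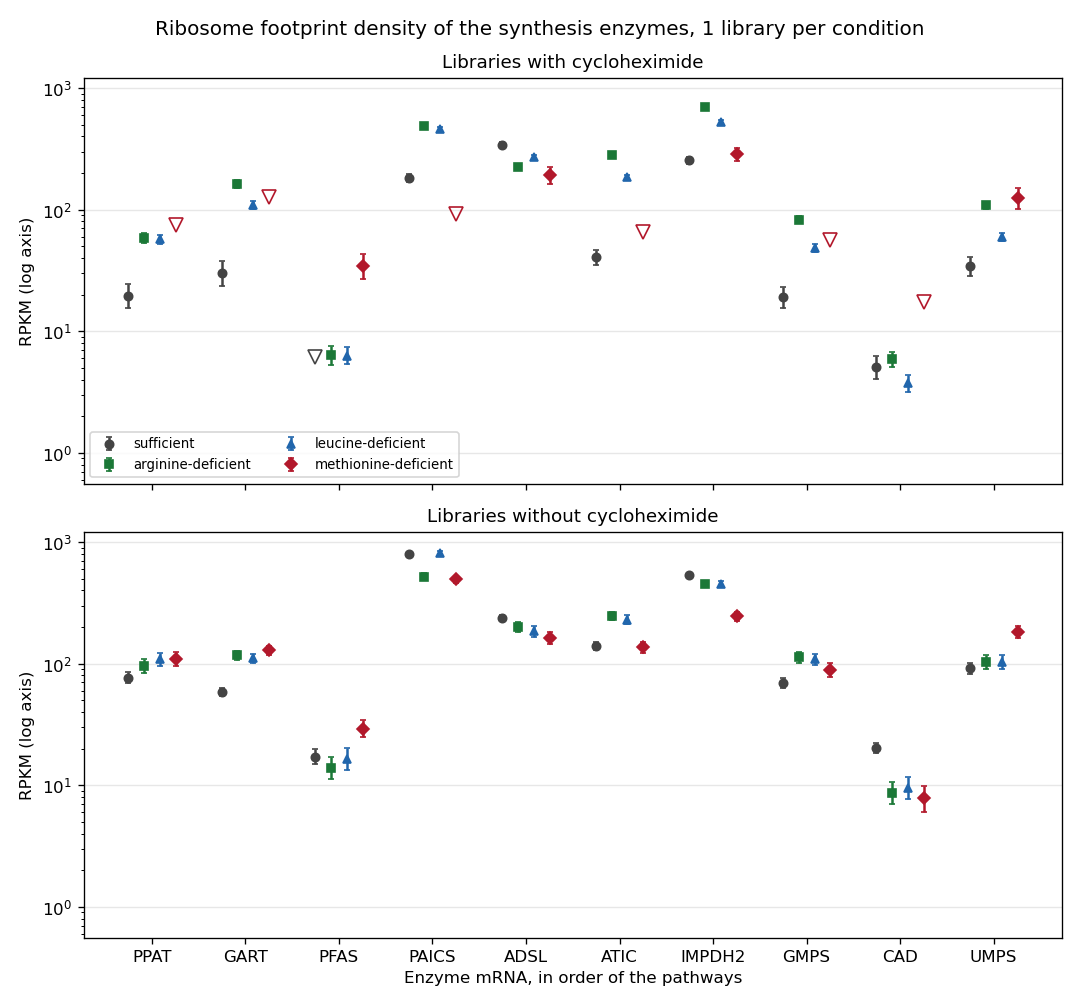
RPKM (log axis) of the 10 enzyme mRNAs in each library, with cycloheximide above and without it below; bars are exact 95% Poisson intervals of the recovered reads, and open triangles mark the highest RPKM that an unlisted mRNA could have had. Without cycloheximide PAICS is the highest in all 4 libraries, and CAD is lower in all 3 starved libraries (7.82 to 9.50) than in Suff (20.2).

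The order of the levels without cycloheximide spanned a 45.9-fold range in Suff and 60.2-fold, 84.9-fold and 63.3-fold ranges in Arg-, Leu- and Met-. In Suff the order from the top was PAICS, IMPDH2, ADSL, ATIC, UMPS, PPAT, GMPS, GART, CAD and PFAS. Neighbours that did not differ beyond counting error there were PPAT and GMPS, and CAD and PFAS. In all 3 starved libraries CAD took the last place and PFAS the one above it. In Arg- GART, GMPS, UMPS and PPAT formed a run of neighbours with intervals including 1, in Leu- GART, PPAT, GMPS and UMPS did, and in Met- UMPS could not be told from ADSL, nor GART from ATIC or PPAT. The median level of the 10 was 84.0, 115, 109.6 and 132 RPKM in Suff, Arg-, Leu- and Met-, against 17.5, 21.4, 23.3 and 28.3 over all listed genes.

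Set against all mRNAs, few of these ratios were far out. An mRNA was counted as called when log2((RPKM + 1)/(RPKM in Suff + 1)) passed 2-fold and the RPKM averaged over the 2 libraries reached 10, as it did for all 10 enzymes. In Arg- no enzyme was called higher, against 8.33% of 7466 mRNAs, and 1 (CAD) was called lower, against 6.05%. In Leu- no enzyme was called higher (6.89% of 7565 mRNAs) and 1, again CAD, lower (2.12%). In Met- 1 enzyme (GART, log2 1.12) was called higher, against 20.2% of 7897 mRNAs, and 2 (IMPDH2, log2 -1.13, and CAD, log2 -1.26) lower, against 5.47%. GART in Arg- and UMPS in Met-, both with a log2 ratio of 0.99, lay just inside the limit. The median log2 ratio of the 10 was -0.03, 0.10 and 0.15 in Arg-, Leu- and Met-, close to that of all mRNAs, -0.02, 0.14 and 0.31. In each starvation 5 of the 10 were above the median of all mRNAs. CAD ranked at percentile 4.07, 2.02 and 2.74 of all mRNAs in Arg-, Leu- and Met-, and IMPDH2 at 3.94 in Met-. CAD reached the minimum only through Suff (20.2 RPKM), since its starved values were 8.65, 9.50 and 7.82 RPKM. Its log2 ratio of -1.01 in Leu- lay just past the limit. The 3 comparisons share the Suff library, so a deviation of Suff alone would appear in all 3.

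The median log2 ratio of the mRNAs listed in both libraries was -0.02, 0.14 and 0.32 in Arg-, Leu- and Met-, and centring subtracted it from every ratio. CAD was still called in all 3, and IMPDH2 in Met-. After centring GART was called in Arg- (log2 1.01) and no longer in Met- (0.81), GMPS in Met- moved from 0.34 to 0.03, and PAICS in Leu- turned from 0.03 to -0.11. The share of all calls that were higher went from 76.5% to 56.4% in Leu- and from 78.7% to 49.9% in Met- with centring.

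**Figure D2:**
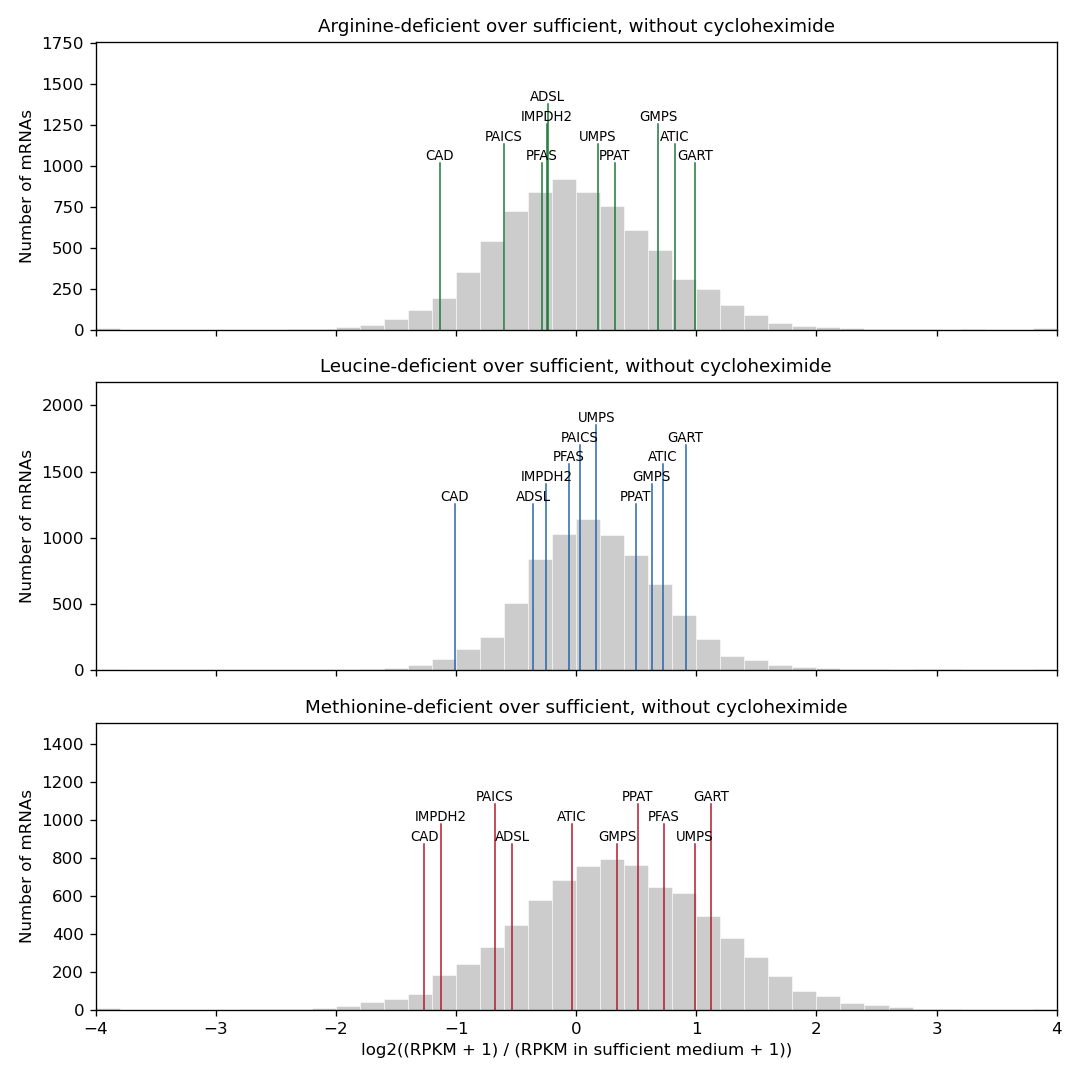
Number of mRNAs by log2((RPKM + 1)/(RPKM in Suff + 1)) for each starvation without cycloheximide (grey bars), with the outermost bars also holding values beyond the axis and lines at the 10 enzymes. The enzymes spread over the whole body of each distribution, and CAD lies in its low tail, at log2 -1.13, -1.01 and -1.26.

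Before centring, Met- and Leu- differed from each other beyond counting error for 7 of the 10 enzymes. UMPS and PFAS were higher in Met- than in Leu-, by 1.77-fold (1.49 to 2.11) and 1.78-fold (1.37 to 2.31). PAICS (0.613, 0.563 to 0.668), ATIC (0.591, 0.514 to 0.678), IMPDH2 (0.543, 0.486 to 0.605) and GMPS (0.818, 0.691 to 0.969) were lower. GART was 1.16-fold higher in Met- (1.02 to 1.32). The intervals of PPAT, ADSL and CAD included 1. Met- and Arg- differed beyond counting error for 6, with UMPS (1.75-fold) and PFAS (2.10-fold) higher in Met- and ATIC (0.550), IMPDH2 (0.541), GMPS (0.787) and ADSL (0.813) lower. Between Leu- and Arg- PAICS alone had an interval off 1, at 1.55-fold higher in Leu- (1.43 to 1.68). None of these ratios between starvations was centred. Centred log2 ratios to Suff in Met- and Leu- were 0.81 and 0.77 for GART, and -0.85 and -0.50 for ADSL. Which enzymes differ between starvations therefore depends on centring.

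Summed by branch, the 10 enzymes took 0.323% (Wilson 95% interval 0.317 to 0.330) of the reads on coding sequences in Suff without cycloheximide, 0.311% (0.303 to 0.320) in Arg-, 0.344% (0.334 to 0.353) in Leu- and 0.268% (0.260 to 0.277) in Met-. Met- was thus the lowest and Leu- the highest. The 6 enzymes from PRPP to IMP held 0.199%, 0.197%, 0.230% and 0.181% in Suff, Arg-, Leu- and Met-. The GMP branch held 0.0972%, 0.0932%, 0.0921% and 0.0562%, with Met- apart from the other 3. CAD and UMPS together held 0.0267%, 0.0207%, 0.0212% and 0.0315%.

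**Figure D3:**
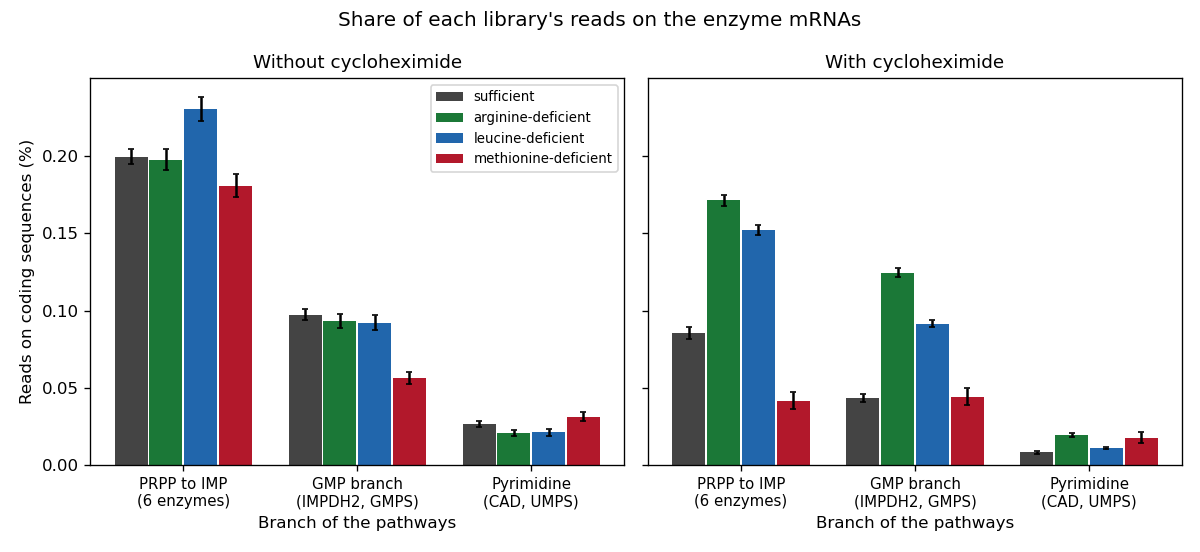
Share of each library's coding-sequence reads (%) on the enzymes from PRPP to IMP, on IMPDH2 and GMPS, and on CAD and UMPS; bars start at 0 and error bars are Wilson 95% intervals of counting error, and enzymes not listed with cycloheximide add no reads. Without cycloheximide the GMP branch in Met- (0.0562%) is below the other 3 libraries (0.0921% to 0.0972%).

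With cycloheximide most of the enzymes were above Suff in Arg- and Leu-, where 7 of the 9 enzymes listed in both libraries had an interval above 1. ADSL was the exception among the well covered ones. The records mark no duplicate removal for this series, so these intervals may be too narrow. Of the 8 enzymes that reached the minimum, 7 were called higher in Arg-, against 29.7% of 6224 mRNAs, and none lower, against 18.4%. In Leu- 6 of 8 were called higher, against 26.3% of 6232 mRNAs, and none lower, against 6.32%. Their median log2 ratio was 1.57 in Arg- and 1.31 in Leu-, with -0.01 and 0.21 over all mRNAs. Centring subtracted medians of -0.23 and 0.02 from the ratios, left these counts at 7 and 6, and took the share of all calls in Arg- that were higher from 61.8% to 73.1%. All 8 enzymes were listed in both libraries, as were 5074 of the 6224 mRNAs in Arg- and 5208 of the 6232 in Leu-. The remaining mRNAs counted as 0 in 1 library, which bears on the shares of all mRNAs called. Both comparisons rest on the same Suff library, in which the 8 enzymes had between 71 (GART) and 1259 (ADSL) reads. The enzymes were chosen with earlier results of these data known, so the counts beside the shares of all mRNAs are a description only.

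In this series PPAT had 19.6 RPKM in Suff, 58.3 in Arg- and 57.1 in Leu-. GART had 30.2, 162 and 109, on a transcript with a coding sequence of 918 nt that GENCODE marks for nonsense-mediated decay, whereas the full 3030 nt were used without cycloheximide. PAICS had 182, 488 and 462. All 3 were at least 2.54-fold above Suff in both starvations, with folds of 2.97 and 2.91 for PPAT, 5.37 and 3.61 for GART, and 2.68 and 2.54 for PAICS.

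ATIC had 40.5 RPKM in Suff, 283 in Arg- and 184 in Leu-, the greatest folds of the 10 among those with a ratio (6.99 and 4.54). IMPDH2 had 254, 695 and 528 (2.74-fold and 2.08-fold) and was the highest of the enzymes in each starved library, where ADSL led in Suff. GMPS had 19.2, 82.9 and 48.3 (4.32-fold and 2.52-fold). The enzymes of IMP closure and of the GMP branch were thus higher in both starvations, and lower in Leu- than in Arg- by a Leu- over Arg- ratio of 0.650 (0.613 to 0.689) for ATIC, 0.759 (0.730 to 0.788) for IMPDH2 and 0.583 (0.526 to 0.646) for GMPS.

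UMPS had 34.4 RPKM in Suff, 108 in Arg- and 59.6 in Leu- (3.14-fold and 1.73-fold). ADSL was lower than Suff in both, with 339, 223 and 269.6 RPKM (0.658 and 0.796). CAD stayed at 5.03, 5.89 and 3.75 RPKM, under the minimum of 10, with folds of 1.17 (0.904 to 1.53) and 0.745 (0.570 to 0.980). PFAS was not listed in Suff, where fewer than 64 reads limit it to at most 6.13 RPKM, and had 6.31 RPKM in Arg- (5.26 to 7.51) and in Leu- (5.38 to 7.36), intervals that include this limit, so no difference was measurable.

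**Figure D4:**
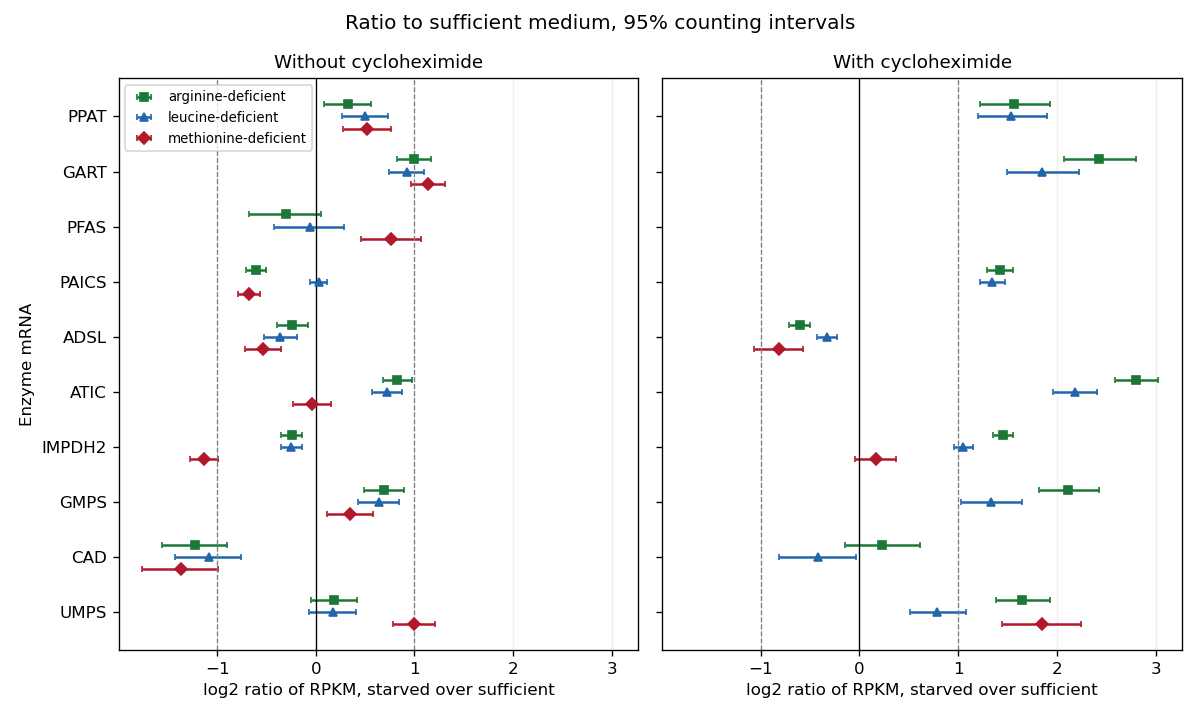
Log2 ratio of RPKM in each starvation over Suff for each enzyme listed in both libraries, without cycloheximide (left) and with it (right); horizontal bars are exact 95% counting intervals and dashed lines mark 2-fold. Without cycloheximide the enzymes lie on both sides of 0, and with it PPAT, GART, PAICS, ATIC, IMPDH2 and GMPS lie to the right in Arg- and Leu-.

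In Met- with cycloheximide 6 of the 10 enzymes were not listed. UMPS had 124 RPKM there, 3.60-fold above Suff (2.73 to 4.72). PFAS had 34.3 RPKM (26.9 to 43.0), and this point value was 5.59-fold its limit of 6.13 RPKM in Suff. IMPDH2 had 286 RPKM, with an interval that included 1 (1.12-fold, 0.972 to 1.30), and ADSL had 192, at 0.567 of Suff (0.475 to 0.672). PAICS was limited to at most 91.8 RPKM and was therefore lower than in Suff, where its point value of 182 RPKM (168 to 197) was 1.98-fold this limit. PPAT, GART, ATIC, GMPS and CAD have upper limits of 75.5, 128, 66.0, 56.3 and 17.5 RPKM, all above their Suff values, so the direction of these 5 was not measurable at this depth. Counted with unlisted mRNAs as 0, 2 of the 7 enzymes that reached the minimum were called higher, against 21.0% of 4805 mRNAs, and 3 lower (PAICS, GART and ATIC), against 61.9%. GART and ATIC counted as lower only because unlisted values were set to 0. PFAS, 1 of the 2 higher, reached the minimum through Met- alone. Of the 4805 mRNAs 1890 were listed in both libraries, so these counts and shares depend largely on that setting. The median log2 ratio was -0.82 for the enzymes and -4.84 for all mRNAs. Over the 1890 mRNAs listed in both libraries the median log2 ratio was 0.89, and centring on it took the share of all calls that were higher from 25.3% to 13.9%. UMPS went from a log2 ratio of 1.82 to 0.93 with centring and was then not called. IMPDH2 turned from 0.17 to -0.72, and ADSL went from -0.82 to -1.71 and was then called lower.

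ADSL was the only enzyme whose interval lay below 1 in all 6 comparisons, from 0.567 to 0.848 of Suff. PPAT, GART and GMPS had intervals above 1 in all 5 comparisons in which they were listed in both libraries. UMPS in Met- was higher in both series before centring (1.99-fold and 3.60-fold). After centring its log2 ratios were 0.67 without cycloheximide and 0.93 with it, neither called. PFAS in Met- was 1.70-fold higher without cycloheximide. With the drug PFAS had no value in Suff and reached the minimum through Met- alone, so that comparison adds no separate support. PAICS in Arg- and IMPDH2 in Arg- and Leu- lay above Suff with cycloheximide and below it without. CAD in Arg- was at 0.429 of Suff (0.339 to 0.538) without cycloheximide, but at 1.17-fold (0.904 to 1.53) with it. In Leu- CAD was below Suff in both series, at 0.471 (0.373 to 0.590) without the drug and 0.745 (0.570 to 0.980) with it. With the drug CAD stayed under the minimum in Arg- and Leu- and was not listed in Met-, so its lower level in Met- rests on the series without cycloheximide. The series differ in drug and listing minimum, the records mark removal of duplicate reads only for the series without cycloheximide, and 4 enzymes (GART, PAICS, ADSL and ATIC) were counted on different transcripts in them, so levels were not compared between the series.

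Of 41 other genes of nucleotide metabolism in 5 lists, 36 or 37 reached the minimum without cycloheximide, of which 1 was called higher and 4 lower in Arg- (8.33% and 6.05% of all mRNAs), 2 and 2 in Leu- (6.89% and 2.12%), and 3 and 4 in Met- (20.2% and 5.47%). Their median log2 ratios were -0.30, 0.07 and -0.16. IMPDH1, the paralogue of IMPDH2, had 78.0 RPKM in Suff and 23.1, 34.9 and 32.8 in Arg-, Leu- and Met-, and was called lower in all 3. RRM1, the large subunit of ribonucleotide reductase, had 44.7 RPKM in Suff and 129, 138 and 102 in the starved libraries, and was called higher in all 3. RRM2, its small subunit, had 298 RPKM in Suff, 242 in Arg-, 358 in Leu- and 127 in Met-, and was called lower in Met-. With cycloheximide RRM2 was above Suff in Arg- (2.80-fold), Leu- (3.36-fold) and Met- (2.27-fold, 1.82 to 2.82). IMPDH1 with the drug was below Suff in Arg- (0.289) and Leu- (0.339) and was not listed in Met-.

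Among the enzymes that supply PRPP, PRPS2 was called lower in Arg- (139 to 52.1 RPKM). With cycloheximide the interval of PRPS2 in Arg- included 1 (1.11-fold, 0.928 to 1.33). PRPS1 was not called, with 407 RPKM in Suff and 261, 429 and 221 in Arg-, Leu- and Met-. PRPSAP2, a regulatory partner of these synthetases, had 87.5 RPKM in Suff and 101, 121 and 103 in the starved libraries and was not called. In salvage, which recovers bases and nucleosides, PNP was called lower in Arg- and Leu- (286 RPKM in Suff, 116 and 134). TK2, the mitochondrial thymidine kinase, was called higher in Leu- and Met- (6.55 RPKM in Suff, 14.5 and 14.96). TK2 reached the minimum there only through the starved libraries. In Arg- TK2 had 12.8 RPKM and a log2 ratio of 0.87, within 2-fold. No read counts were recovered for TK2, so its ratios have no counting interval. HPRT1, which returns hypoxanthine and guanine to IMP and GMP, had 688 RPKM in Suff and 389, 524 and 367 in Arg-, Leu- and Met- and was not called. Of the nucleotide kinases NME1 was called lower in Arg- (773 to 326 RPKM) and CMPK1 in Met- (99.7 to 33.5 RPKM). With cycloheximide NME1 in Arg- was at 0.847 of Suff (0.787 to 0.912). AK6 had 126 RPKM in Suff, 94.5 in Arg-, 68.2 in Leu- and 79.9 in Met- and was not called. ADSS2, which acts before ADSL in the AMP branch, was called lower in Met- (116 to 55.4 RPKM), and SAMHD1, which degrades deoxynucleotides, higher (23.0 to 61.2 RPKM). DHODH, the mitochondrial step between CAD and UMPS, had 21.7 RPKM in Suff, 14.6 in Arg-, 25.9 in Leu- and 42.0 in Met- and was not called. With cycloheximide 32 of the 41 reached the minimum in Arg- and in Leu-, with medians of -0.17 and 0.06. In Arg- 5 were called higher and 3 lower (29.7% and 18.4% of all mRNAs), and in Leu- 5 and 2 (26.3% and 6.32%). In Met- of that series 1 of 29 was called higher and 21 lower (21.0% and 61.9% of all mRNAs), where unlisted mRNAs count as 0.

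Over all mRNAs listed in both libraries the log2 ratio ran with coding length, with a Spearman rho across mRNAs of 0.34, 0.30 and 0.43 in Arg-, Leu- and Met- without cycloheximide and 0.47, 0.42 and 0.54 with it. The mRNAs share libraries and are not independent. CAD, at 2225 codons, was longer than 98.0% of listed mRNAs. The part of length in the enzymes' values was not tested.

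The proteins' content of the amino acids withheld varied among the 10. Methionine made up 1.62% (PAICS) to 3.21% (ADSL) of residues, with a median of 1.91% against 2.13% over 11065 listed mRNAs. Leucine ran from 8.56% (IMPDH2) to 11.9% (UMPS), with a median of 9.91% against 9.76%. Arginine ran from 3.37% (GART) to 7.03% (ADSL), with a median of 4.94% against 5.63%.

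Only ADSL, IMPDH2 and UMPS were listed in all 8 libraries. The genes whose log2(RPKM + 1), centred within each series, most resembled the mean of these 3 over the 8 libraries were KARS1 (Pearson r across libraries 0.96), ILF2 (0.96), HSP90AB1 (0.94), NAP1L1 (0.94) and WDR43 (0.93), of 1722 genes compared. The 3 enzymes did not resemble each other, with an r of -0.64 for ADSL, 0.07 for IMPDH2 and -0.40 for UMPS against the mean of the other 2. The 8 points share 2 Suff libraries and differ in depth, and no test was made.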

How the data were processed

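Ribosome-protected fragments from pooled sucrose-gradient ribosome fractions were digested with RNase I, poly(A)-tailed and sequenced from 8 HEK293T libraries, 1 per condition. Per the methods, the authors trimmed adaptors with a script and low-quality bases with Trimmomatic, while the submitters' processing notes name cutadapt. They used Bowtie (versions not given in the sources used here), aligned to GRCh38 transcripts without mismatch, kept unique reads, and deposited RPKM per Ensembl transcript. The records mark duplicate removal for the series without cycloheximide, which the methods do not describe. Transcripts were matched to GENCODE 44 (96.7% to 97.1% per library), and each gene took its highest transcript. Read counts were recovered from RPKM multiplied by coding length, and 97.1% to 97.4% of values were whole within 0.01 of a read. Intervals treat every read as independent and cover counting error only. PCR copies are not independent molecules, so the intervals are too narrow where copies remain. The records mark no duplicate removal with cycloheximide.

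Each starved library was compared with Suff of its series on log2(RPKM + 1), which understates folds of low mRNAs. Calls were 2-fold at a mean RPKM of at least 10, and unlisted mRNAs counted as 0. With 1 library per condition no test was made. Genes named were the 10 enzymes, the 3 genes with the largest ratio without cycloheximide in each of 5 lists (41 genes), and the 5 genes of most similar pattern. The enzymes and lists were chosen with earlier results of these data known. CTPS1, CMPK2 and NME2 had no value under a matched transcript. Alternatives were a pseudocount of 0.1, a minimum of 50 or none, centring, summed or shared transcripts, and unlisted mRNAs set 1 read under the listing minimum. Scripts were tested on simulated data and ran in Python 3.11.15 with scipy 1.17.1, numpy 2.4.6, matplotlib 3.10.9 and pandas 2.3.3.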

Additional observations from a re-analysis of the deposited data

Results flagged for a closer look

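PAICS in Arg- was 2.68-fold of Suff with cycloheximide and 0.658 of Suff without it, with counting intervals on opposite sides of 1. IMPDH2 in Arg- was 2.74-fold of Suff with cycloheximide and 0.844 without it. IMPDH2 in Leu- was 2.08-fold with cycloheximide and 0.842 without it. The difference between the series was not tested in any of these, since each value rests on 1 library per condition, and PAICS was counted on different transcripts in the series.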

How the results depend on the processing

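Of the counts and medians, 109 were little moved by the alternatives and 17 moved, all of them in Met- with cycloheximide or in the series without it. Of the single log2 ratios 355 were little moved, 40 moved and 5 reversed. In Met- with cycloheximide (2 higher, 3 lower, median -0.82), a minimum of 50 gave 1 higher, 1 lower and a median of -0.32, no minimum gave 6 lower and -3.46, and centring gave 1 higher and -1.71. Unlisted mRNAs set 1 read under the listing minimum gave 0 lower and a median of 0.69, and reversed PPAT (1.89), GART (2.04), ATIC (0.69), GMPS (1.51) and CAD (1.62), by construction, since their limits exceed the Suff values. Without cycloheximide a minimum of 50, which leaves out CAD and PFAS, gave 0 lower and a median of 0.25 in Arg-, 0 lower and 0.33 in Leu-, and 1 lower in Met-. Centring gave 1 higher in Arg-, and 0 higher with a median of -0.16 in Met-. Over all mRNAs centring changed calls higher and lower from 521 and 160 to 341 and 264 in Leu- and from 1596 and 432 to 848 and 851 in Met- without cycloheximide, and calls higher from 1009 to 520 in Met- with it. No paired analysis was possible because the labels give no replicate numbers that groups share beyond 1 library per condition. Depth limits Met- with cycloheximide most, where 64 reads were needed for a value, and CAD, PFAS and the cycloheximide values of PPAT, GART and UMPS, which rest on under 100 reads in at least 1 library.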
